A study of Homo sapiens with 8 samples.

Results

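The 41 genes described here are those of the cell division cycle and mitosis: 12 G1 cyclins, kinases and inhibitors, 9 replication genes, 9 genes of mitotic entry and exit and 11 genes of chromosomes and the spindle. They were listed by name, as known components of the cycle, with earlier results of these data known. The deposited table of day 0 has 33575 gene loci and that of day 3.5 has 34690. In both, 38 of the 41 have a row of their own. PLK1, BUB1B and CENPA appear only in rows that the authors merged with a neighbouring gene, and CDKN2C, an inhibitor of CDK4 and CDK6, was not tested by the authors (0.0246 to 0.0902 FPKM in the 4 groups). The remaining 37 genes were tested on both days and reached 1 FPKM (a level per transcript length and per library size) in each comparison.

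All cells were of H9, an established line of human embryonic stem cells, grown on gels in feeder-conditioned medium. One pair of groups was undifferentiated (day 0), on a soft gel of 400 Pa or a stiff gel of 60 kPa. The other pair had been induced to mesoderm with bFGF, Activin, VEGF and BMP4 and was taken at day 3.5 on the same stiffnesses. Each group holds 2 libraries, and each deposited value is 1 FPKM for the group, so no spread between libraries can be given and the read depth is unknown. The labels do not state that the libraries of a group were separate cultures, and the authors' p-values may therefore measure technical spread only. H9 is a single line, so nothing here bears on other lines.

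A dividing cell commits to a new cycle in G1 through cyclin D with CDK4 or CDK6 and cyclin E with CDK2, which release E2F factors from the retinoblastoma protein. The MCM helicase, loaded on DNA with the help of CDC6, then unwinds it, and DNA polymerases held by the sliding clamp PCNA copy it. CDK1 with cyclins A and B drives mitosis. WEE1 holds CDK1 back, CDC25 phosphatases activate it, and CDC20 ends mitosis through the anaphase-promoting complex. Human embryonic stem cells are known for a short G1 and a large share of cells in S phase.

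Genes of S phase and of mitosis are known to carry different promoter elements, E2F sites in the former and CHR elements, often with CCAAT boxes, in the latter. The sequences of 32 of the 41 genes were found in the RefSeq promoter table of build GRCh38.p14, and the 250 bases before the start were searched on both strands. The E2F-type words were TTTCGCGC, TTTGGCGC, TTTCCCGC and TTTGCCGC, the CHR word was TTTGAA and the CCAAT box was CCAAT. E2F-type words were found in 4 of 7 replication genes, against 2.79% of the 27305 promoters in the table. None of the 8 promoters of mitotic entry and exit held one, but 1 of 9 chromosome and spindle genes (CENPA) and 2 of 8 G1 genes did. CHR words were found in 4 of 8 genes of mitotic entry and exit and in 5 of 9 chromosome and spindle genes, against 13.6% of all promoters. No replication gene and none of the 8 G1 genes held one. CCAAT boxes were found in 22 of 32 genes, against 33.0% of all. They were in 6 of 7 replication genes and 3 of 8 G1 genes. Among mitotic genes they were in 6 of 8 of entry and exit and 7 of 9 of chromosomes and spindle. CCAAT boxes thus did not set mitotic genes apart from replication genes. The members' promoters had a median GC content of 64.0%, against 58.0% over all promoters. A match describes these letters only.

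The promoters printed here show both kinds, with the matched words in capitals. MCM6 (chr2:135876444-135876693, minus strand) and MCM7 (chr7:100101398-100101647, minus strand) stand for the replication genes. In MCM6 the E2F-type words lie in pairs that overlap on opposite strands, and in MCM7 one lies 9 bases before the start. CDC20 (chr1:43358731-43358980, plus strand), CCNB2 (chr15:59104896-59105145, plus strand) and KIF11 (chr10:92592880-92593129, plus strand) stand for the mitotic genes. In CCNB2 the CHR word lies 29 bases before the start, behind CCAAT boxes at 120, 87 and 54 bases; in KIF11 it lies at 28 bases behind a CCAAT box at 53. Each sequence runs 5′ to 3′ along the gene and ends at the base before its start:
MCM6: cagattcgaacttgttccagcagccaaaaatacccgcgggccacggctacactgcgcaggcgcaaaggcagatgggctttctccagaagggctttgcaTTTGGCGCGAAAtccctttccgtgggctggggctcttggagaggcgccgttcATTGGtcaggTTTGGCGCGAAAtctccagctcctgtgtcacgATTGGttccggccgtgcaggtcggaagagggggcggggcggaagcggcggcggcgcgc
MCM7: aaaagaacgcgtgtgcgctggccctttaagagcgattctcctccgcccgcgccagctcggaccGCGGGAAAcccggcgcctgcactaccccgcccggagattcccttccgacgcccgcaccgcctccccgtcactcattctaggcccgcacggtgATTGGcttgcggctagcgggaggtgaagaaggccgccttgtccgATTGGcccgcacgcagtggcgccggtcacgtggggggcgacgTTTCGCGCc
CDC20: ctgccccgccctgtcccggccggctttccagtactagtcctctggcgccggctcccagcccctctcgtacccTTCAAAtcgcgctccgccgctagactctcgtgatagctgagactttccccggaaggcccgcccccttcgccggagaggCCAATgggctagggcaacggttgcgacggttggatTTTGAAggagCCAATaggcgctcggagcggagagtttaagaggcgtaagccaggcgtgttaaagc
CCNB2: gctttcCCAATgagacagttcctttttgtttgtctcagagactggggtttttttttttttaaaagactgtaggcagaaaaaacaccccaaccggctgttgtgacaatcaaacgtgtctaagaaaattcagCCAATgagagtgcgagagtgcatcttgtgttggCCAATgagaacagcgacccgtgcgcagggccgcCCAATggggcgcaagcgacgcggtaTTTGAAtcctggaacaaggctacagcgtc
KIF11: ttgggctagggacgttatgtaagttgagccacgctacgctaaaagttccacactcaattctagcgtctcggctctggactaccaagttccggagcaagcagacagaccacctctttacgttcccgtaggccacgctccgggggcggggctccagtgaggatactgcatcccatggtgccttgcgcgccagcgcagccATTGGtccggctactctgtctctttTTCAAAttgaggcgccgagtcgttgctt

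Cell cycle genes were among the well-expressed genes of these cells. Their median level at day 0 was 53.4 FPKM on 400 Pa and 56.8 on 60 kPa over the 38 genes, where the median over the 15298 tested genes was 10.3 and 10.1. Of the 38, 15 on 400 Pa and 14 on 60 kPa reached the level that 10% of all genes reach (79.6 and 77.8 FPKM). At day 3.5 their median was 39.1 and 41.7 FPKM, and 12 and 14 reached the corresponding levels of that day (71.0 and 65.6 FPKM). Within the MCM ring, whose 6 subunits act in equal numbers, FPKM ran from 533 for MCM4 down to 50.5 for MCM6 on the soft gel at day 0, a ratio of 10.6. In the other 3 groups that ratio was between 8.04 and 9.49, with MCM4 highest, MCM2 next to last and MCM6 lowest in every group. The order among MCM3, MCM5 and MCM7 changed between groups. FPKM is per length, but without values per library no neighbours in this order can be tested.

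**Figure D1:**
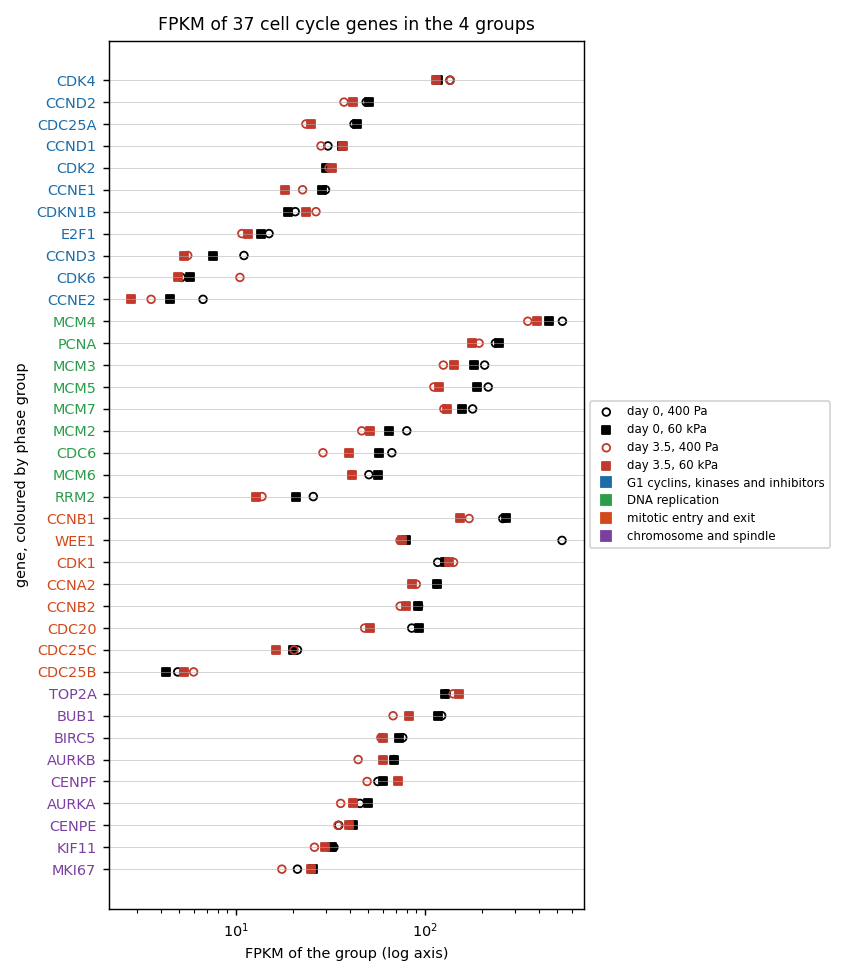
FPKM on a log axis for the 37 tested genes (rows, coloured by phase group) in the 4 groups: circles for 400 Pa, squares for 60 kPa, black for day 0 and red for day 3.5. WEE1 on 400 Pa at day 0 stands at 531 FPKM, apart from its other 3 values of 73.8 to 79.5, and the red symbols of the replication genes lie to the left of the black ones.

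The labelled cell states were checked on marker genes. The 8 pluripotent markers summed to 1959 FPKM on the soft gel and 2077 on the stiff gel at day 0, against 531 and 866 at day 3.5. All 8 were lower at day 3.5 on 400 Pa. On 60 kPa 7 of 8 were lower, while SOX2 went from 116 to 164 FPKM, and LIN28A moved little there (249 to 239). The 9 mesoderm markers with a row of their own summed to 11.2 and 14.98 FPKM at day 0, with 8 of the 9 under 1 FPKM on both gels, against 206 and 60.1 at day 3.5. Neuroectoderm markers (7 genes) summed to 155 and 90.2 FPKM at day 0, then to 98.3 and 242 at day 3.5. OTX2 made up most of these sums at day 0 (136 and 82.2 FPKM). Without it they went from 18.2 to 29.03 FPKM on 400 Pa and from 8.03 to 89.96 on 60 kPa, with 5 of 7 genes higher at day 3.5 on the former and 7 of 7 on the latter. Amnion and trophoblast markers summed to 160 and 39.5 FPKM at day 3.5 (7 genes), and to 19.8 and 10.3 at day 0 (6 genes with a row). Fibroblast markers (7 genes) summed to 159 and 211 FPKM at day 0, then to 258 and 72.8 at day 3.5. THY1, which pluripotent cells also express, gave 135 and 191 FPKM of the day 0 sums and was at 25.5 and 26.8 at day 3.5. Without it the sums went from 23.3 to 233 FPKM on 400 Pa and from 20.4 to 45.9 on 60 kPa, with 5 of 7 genes higher at day 3.5 on each gel. These marker sums thus differed between the gels at day 3.5, and their part in the results below was not tested. In such bulk samples, fewer cells of a type and less RNA per cell cannot be told apart.

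The first comparison asked whether undifferentiated cells on the soft and the stiff gel differed in cell cycle genes. WEE1 was the single gene called, and it was higher on the soft gel. The other 36 genes lay close together on both gels. Changes between gels are given as the log2 of soft over stiff FPKM, each plus a pseudocount of 1, and a value above 0 means the soft gel was higher. The standard error (SE) was taken as the authors' log2 ratio over their test statistic, which approximates it on the scale without pseudocount. In the authors' deposited table, 1 of 37 was called at q below 0.05, where 0.15% of the 15298 tested genes were called and 0.0719% were called higher on 400 Pa. A change of at least 0.5 in size was seen in 1 of 37 members and in 12.2% of all genes. The median change was 0.03, as it was over all genes (0.03), with 23 members above 0 and 14 below. Over all genes 54.3% lay above 0.

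WEE1, the kinase that inhibits CDK1 before mitosis, was at 531 FPKM on the soft gel and 79.5 on the stiff gel at day 0, a ratio of 6.67. The change was 2.72 with an SE of 0.42, and the authors' deposited table gives p = 5e-05, the smallest value on that day, and q = 0.0390. That p was not unique to WEE1: TFAP2A shared it at day 0, and it was also the smallest at day 3.5. At day 3.5 the gene was at 73.8 and 75.2 FPKM (change -0.03, SE 0.73), and the authors' deposited table does not call it there. The soft gel at day 0 was thus the only high group among the 4. WEE1 spans chr11:9595228-9615004 in the authors' tables (hg19), with no other gene above 5 FPKM in the locus. In GENCODE release 29 the gene contains a snoRNA gene, RF01210. The deposited value is for the whole locus, and the part of that small RNA in it was not tested. CDK1 itself was at 117 FPKM on the soft gel and 128 on the stiff gel, and CDC25B and CDC25C, the phosphatases that oppose WEE1, were at 4.92 and 4.24 and at 21.2 and 20.1.

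The G1 genes had no call at day 0 in the authors' deposited table. CCND1 was at 30.6 FPKM on the soft gel and 36.5 on the stiff gel (change -0.24, SE 0.53), and CCND2 at 48.8 and 50.5. CCND3 was at 11.0 and 7.6 FPKM (0.48, SE 1.58), and CCNE2 at 6.69 and 4.49 (0.49, SE 2.03). These were the lowest cyclins of the list and the ones with the largest errors. CCNE1, the more abundant cyclin E, was at 29.7 and 28.5 FPKM. Its partner CDK2 was at 30.7 and 30.1 FPKM. Among the cyclin D kinases, CDK4 was at 136 and 117 FPKM and CDK6 at 5.14 and 5.71, so that CDK4 exceeded CDK6 26.4 times on 400 Pa and 20.5 times on 60 kPa. E2F1 (14.95 and 13.5 FPKM), the phosphatase gene CDC25A (42.1 and 43.6) and the CDK inhibitor gene CDKN1B (20.6 and 18.8) all differed between the gels by less than their SE. In bundles such as those of CCND3, CCNE2 and CDK2, other genes share the locus, so that the authors' assignment of reads between them matters for these values.

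Replication genes lay slightly to the soft side at day 0, with 7 of 9 above 0 and a median of 0.20, and none was called in the authors' deposited table. MCM2 was at 80.1 FPKM on the soft gel and 64.4 on the stiff gel (0.31, SE 0.44). RRM2, a subunit of ribonucleotide reductase, was at 25.6 and 20.7 (0.30, SE 0.45). CDC6 was at 66.7 and 57.1 (0.22, SE 0.47). Each of these changes was smaller than its SE. MCM6 (50.5 and 56.4 FPKM) and PCNA (236 and 247) were the members below 0.

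Mitotic genes were nearly level between the gels at day 0. Without WEE1, the changes of mitotic entry and exit genes ran from -0.14 (CDK1) to 0.18 (CDC25B). CCNB1 was at 258 FPKM on the soft gel and 267 on the stiff gel, CCNB2 at 92.5 and 91.4 and CCNA2 at 115 and 116. The chromosome and spindle genes ran from -0.26 for MKI67, the proliferation antigen Ki-67 (21.1 and 25.5 FPKM), to 0.07 for the checkpoint kinase BUB1 (122 and 117). AURKB, the kinase of the chromosomal passenger complex, was at 68.6 and 68.3 FPKM, and BIRC5, its partner survivin, at 76.2 and 73.1. The merged rows give 48.1 and 39.2 FPKM for PLK1 with DCTN5, 112 and 118 for BUB1B with PAK6 and RP11-133K1.2, and 20.2 and 25.2 for CENPA with SLC35F6.

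A missing call does not show equal levels. With the implied SE, the 95% interval of the ratio stayed within a 2-fold difference for 17 of the 37 members at day 0 and for 3 of 37 at day 3.5. The median SE of the members was 0.45 at day 0 and 0.63 at day 3.5, from 0.30 and 0.41 for PCNA up to 2.03 and 3.94 for CCNE2. These errors are wide beside the authors' own p-values: in the authors' deposited tables, p was lower than a normal reading of the statistic gives for 36 of 37 members at day 0, all but WEE1, and for 37 of 37 at day 3.5, as for 99.1% and 98.9% of all genes. No tested gene had a lower p than WEE1 on either day. Taken from p instead, the median SE was 0.27 and 0.37, and 29 and 23 of 37 intervals stayed within 2-fold. Statements that a change was smaller than its SE refer to the SE from the statistic.

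At day 3.5 the same comparison was made in the induced cells. CDK6 was the single member called and was higher on the soft gel, while the chromosome and spindle genes all lay a little to the stiff side, with none of them called. In the authors' deposited table, 1 of 37 members was called, where 1.4% of 16131 tested genes were called and 1.17% were called higher on 400 Pa. That share of members, 2.70%, is near the background. A change of at least 0.5 in size was seen in 2 of 37 members (CDK6 and CENPF) and in 22.3% of all genes. The median of the members was -0.08, with 13 above 0 and 24 below, against 0.04 over all genes. Over all genes 45.2% lay below 0.

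CDK6, a kinase that partners with D cyclins in G1, was at 10.5 FPKM on the soft gel and 4.93 on the stiff gel, a ratio of 2.13. Its change was 0.95 with an SE of 0.74. The authors' deposited table gives p = 0.0006, q = 0.0490 and a test statistic of 1.48 in size, which would not pass a two-sided normal test at 0.05. As for the other members on that day, that p is lower than a normal reading of the statistic gives, and with the SE taken from p it would be 0.32. At day 0 the gene was at 5.14 and 5.71 FPKM, and the soft gel at day 3.5 was again the only high group of the 4. CDK6 spans chr7:92234235-92546501 (hg19) and contains RNU6-10P, which GENCODE release 29 types as snRNA. Whether that small RNA has a part in the value was not tested. CDK4 was at 136 and 115 FPKM, and it exceeded CDK6 13.0 times on 400 Pa and 23.2 times on 60 kPa. Of the cyclins, CCND1 was at 28.2 and 36.9 FPKM (-0.38, SE 0.50), CCND2 at 37.3 and 41.6, CCNE1 at 22.5 and 18.2 (0.29, SE 0.54) and CCND3 at 5.56 and 5.31. The inhibitor gene CDKN1B was at 26.5 and 23.3 FPKM.

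Replication genes lay on the stiff side in 7 of 9 cases at day 3.5 (median -0.10), with no member called in the authors' deposited table. CDC6 was at 28.9 FPKM on the soft gel and 39.5 on the stiff gel (-0.44, SE 0.71). MCM3 was at 125 and 143 (-0.19, SE 0.43), and MCM2 at 46.3 and 51.3 (-0.15, SE 0.56). PCNA (193 and 178 FPKM) and RRM2 (13.7 and 12.7) lay above 0. Of the 9 genes, 6 were above 0 at day 0 and below 0 at day 3.5.

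All 9 tested chromosome and spindle genes lay below 0 at day 3.5, with a median of -0.22, and none was called in the authors' deposited table. CENPF, a kinetochore protein, was at 49.4 FPKM on the soft gel and 72.3 on the stiff gel (-0.54, SE 0.94). MKI67 was at 17.5 and 24.8 (-0.48, SE 1.09). AURKB was at 44.3 and 59.7 (-0.42, SE 0.57). Each SE exceeded the change beside it. BUB1 was at 67.8 and 82.5 FPKM, and TOP2A, the topoisomerase that untangles chromosomes, at 141 and 152. The motor KIF11 (26.0 and 29.7 FPKM), AURKA (35.8 and 41.8), CENPE (34.6 and 39.4) and BIRC5 (58.4 and 60.1) lay between -0.22 and -0.04. The merged row of BUB1B was at 66.7 and 95.3 FPKM, that of CENPA at 34.8 and 30.6 and that of PLK1 at 41.5 and 38.6. Genes of mitotic entry and exit did not share that side, with 5 of 8 above 0 and a median of 0.08. CCNB1 was at 171 and 153 FPKM, CDK1 at 142 and 133, CCNA2 at 89.9 and 85.1, and CCNB2 at 73.9 and 79.5. CDC20 was at 47.9 and 51.3 FPKM.

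**Figure D2:**
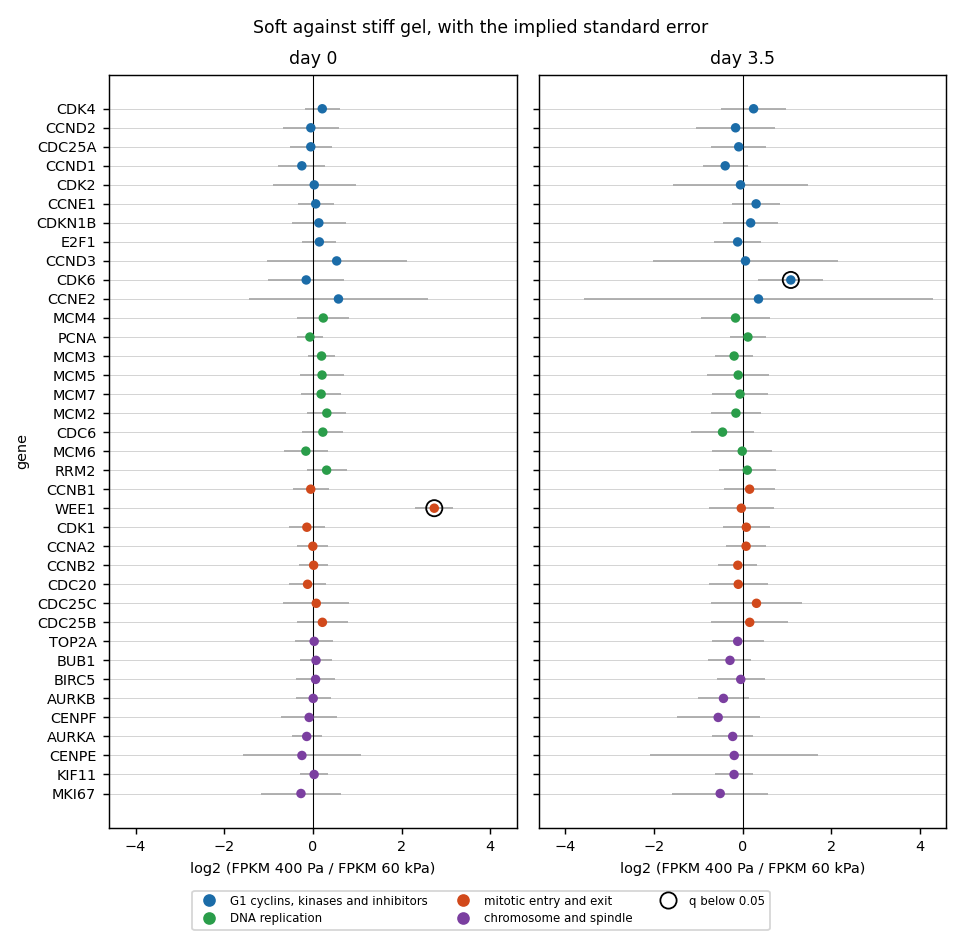
Log2 ratio of FPKM on 400 Pa over 60 kPa for each of 37 genes (points, coloured by phase group) with the implied SE as bars, at day 0 (left) and day 3.5 (right); rings mark q below 0.05 in the authors' deposited tables. WEE1 at day 0 and CDK6 at day 3.5 carry the rings, and the 9 chromosome and spindle genes lie left of 0 at day 3.5.

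Whether the difference between gels itself differed between the days was tested over 14320 loci, from the deposited ratios and their implied errors with a normal approximation and Benjamini-Hochberg adjustment. None of the 37 members passed (adjusted p below 0.05), where 0.0768% of all loci did. Unadjusted, WEE1 alone had p below 0.05: the log2 ratio of 400 Pa over 60 kPa differed by -2.77 from day 0 to day 3.5 (SE 0.84), and it did not pass after adjustment. For CDK6 the difference was 1.24 with an SE of 1.13. In simulated data over the same loci, the test found 7.0% of 100 loci with a true difference of 2. It found 75% of 100 with one of 6, so that over such loci mainly large differences could have passed. The simulated loci were drawn from all loci, and over all tested genes the median SE was 0.75 at day 0 and 0.94 at day 3.5. It was smaller over the members (0.45 and 0.63), so these rates are not those of the members, which were not simulated apart. With errors taken from the authors' p instead, none of the 37 passed after adjustment, where 0.358% of 14252 loci did. WEE1 and CDK6 then had an unadjusted p below 0.05. The authors' p of WEE1 at day 0 (5e-05) was the lowest that any tested gene had on either day. Its SE from p, 0.68 against 0.42 from the statistic, may therefore be too large. For WEE1 this second reading is no independent check.

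Levels of the days were then set side by side on each gel, untested, since each day has its own table. Most cell cycle genes were lower in the induced cells than in the undifferentiated ones, and replication genes were so without exception. Over the 37 genes the median change from day 0 to day 3.5 was -0.38 on 400 Pa and -0.26 on 60 kPa, against -0.02 on each gel over all genes. On each gel 30 of 37 lay below 0, where 51.5% and 51.3% of all genes did. A level lower by at least 0.5 was seen in 15 of 37 on 400 Pa, where 18.8% of 14913 genes showed it, and in 8 of 37 on 60 kPa, where 15.3% of 14898 did. On both gels 28 of the 37 were lower, 75.7%, against 37.1% of the 15186 genes compared. The changes on the 2 gels had a Pearson r of 0.44 over the 37 members and of 0.71 without WEE1, against 0.55 over all genes; the points share libraries and the scaling within each table.

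Replication genes stood lowest, with medians of -0.72 on 400 Pa and -0.45 on 60 kPa and all 9 below 0 on both gels. CDC6, the loader of the MCM helicase, went from 66.7 to 28.9 FPKM on 400 Pa, 43.2% of its day 0 level, and from 57.1 to 39.5 on 60 kPa, 69.0%. MCM5 went from 216 to 111 FPKM and from 187 to 119. RRM2 went from 25.6 to 13.7 and from 20.7 to 12.7. These 3 genes had the lowest changes of the group on the soft gel. MCM2 was at 57.8% of its day 0 level on 400 Pa and 79.7% on 60 kPa, MCM3 at 60.5% and 78.9%, and MCM4 at 65.6% and 86.1%. MCM7 was at 70.5% and 83.4%. PCNA (81.9% and 71.8%) and MCM6 (81.1% and 73.0%) were instead lower on the stiff gel. The 39 other replication genes of a list chosen for comparison, among them the origin recognition complex, GINS, RFC and the polymerases, had medians of -0.34 and -0.20, with 26 and 25 of 35 tested below 0. RFC2, a clamp loader subunit, was the lowest of that list on 400 Pa, from 30.0 to 11.1 FPKM, and went from 20.3 to 16.5 on 60 kPa.

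G1 genes were spread more widely. CDC25A went from 42.1 to 23.4 FPKM on 400 Pa and from 43.6 to 24.9 on 60 kPa, CCND3 from 11.0 to 5.56 and from 7.6 to 5.31, and CCNE1 from 29.7 to 22.5 and from 28.5 to 18.2. CCND2 was at 76.3% and 82.4% of its day 0 level. Against these, CDKN1B, which encodes the inhibitor p27, was higher on both gels, at 129% and 124% of day 0. CDK4 was at 100.4% and 97.8% and CDK2 at 101% and 107%. CDK6 was at 204% on 400 Pa and 86.4% on 60 kPa, the member whose days differed most upward on the soft gel. E2F1 was at 71.8% and 85.7%, and CCND1 at 91.9% and 101%.

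Among mitotic genes, CDC20 was at 56.3% and 55.4% of its day 0 level and CCNB1 at 66.3% and 57.4%. BUB1 was at 55.3% and 70.7%. CCNA2 was at 78.0% and 73.6%. In contrast to these, CDK1, the kinase that cyclins A and B activate, was at 121% on 400 Pa and 104% on 60 kPa, TOP2A at 109% and 120%, and CDC25B at 121% and 126%. MKI67 was at 82.7% and 97.3%, so that the common proliferation marker moved less than the replication genes. WEE1 was at 13.9% on 400 Pa and 94.6% on 60 kPa. The chromosome and spindle group had medians of -0.33 and -0.12, with 7 of 9 lower on both gels, and CENPF was at 87.7% and 121%.

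The change over days was further down on 400 Pa than on 60 kPa in 25 of 37 members. That count was not made over all genes, so it cannot be called particular to the members. Of all genes, 18.8% were lower by at least 0.5 on 400 Pa and 15.3% on 60 kPa. The changes of the members share the libraries of the comparisons between gels, so they are the same information in another form and were not tested. On 400 Pa the pluripotent markers also had the lower sum at day 3.5 (531 against 866 FPKM) and the mesoderm markers the higher one (206 against 60.1). Among the pluripotent markers the gels differed most in FPKM in SOX2 (54.0 and 164) and LIN28A (131 and 239). POU5F1 (114 and 122) and NANOG (2.46 and 3.16) lay closer together. The part of these markers in this result was not tested.

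**Figure D3:**
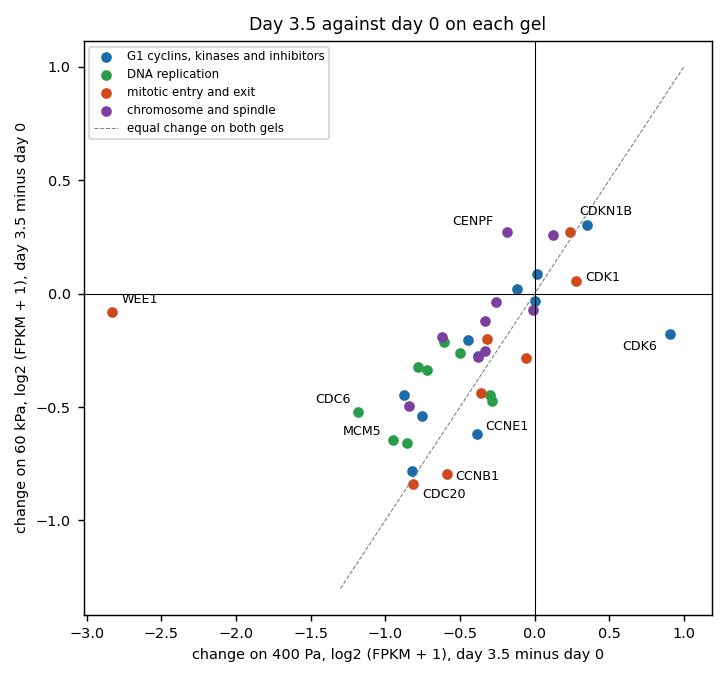
Change in log2(FPKM + 1) from day 0 to day 3.5 on 400 Pa (horizontal) and on 60 kPa (vertical) for 37 genes coloured by phase group, with a dashed line of equal change. The 9 replication genes lie at the lower left, 28 of 37 genes are below 0 on both gels, and WEE1 and CDK6 lie off the line.

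The other genes of the pathway, 160 genes in 8 lists, were set beside the members. None was called on either day in the authors' deposited tables (144 tested at day 0 and 143 at day 3.5). Their median between gels was 0.06 at day 0, with 90 above 0, and -0.08 at day 3.5, with 95 below 0. Over all genes, 54.3% lay above 0 at day 0 and 45.2% below 0 at day 3.5. At day 0, 13 of 15 tested E2F, DREAM and MYB-MuvB factors lay above 0, from -0.24 for E2F5 to 0.32 for E2F8. The median of these transcription factors of the cycle was 0.16. At day 3.5, 20 of 25 spindle and midzone genes lay below 0 (median -0.15), from -0.31 for KIF18B to 0.26 for KIF22. CDKN1A, the gene of the inhibitor p21, was at 5.19 and 9.48 FPKM at day 0 (-0.76, SE 0.64), then at 4.50 and 6.84 at day 3.5 (-0.51, SE 0.77). ESPL1, the gene of separase, was at 12.3 and 7.70 FPKM at day 0 (0.62, SE 0.59). SLBP, which binds histone mRNA, was at 52.4 and 34.8 FPKM at day 3.5 (0.58, SE 0.51). SMC3 of cohesin was at 18.2 and 27.3 (-0.56, SE 0.45).

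Across the days, the 160 genes had medians of -0.22 on 400 Pa and -0.12 on 60 kPa, with 104 of 144 and 93 of 143 below 0. Inhibitors and pocket proteins were the one list with a median above 0 on both gels (0.16 and 0.19). Of its 7 tested genes, 4 lay above 0 on 400 Pa and 5 on 60 kPa, where 48.5% and 48.7% of all genes did. With 7 genes these counts are near those shares, and CDKN2D among them was at only 0.837 to 1.63 FPKM in the 4 groups. CDKN1C, the gene of the inhibitor p57, was at 6.76 FPKM on the soft gel and 4.77 on the stiff gel at day 0, then at 20.9 and 12.7 at day 3.5. CDKN3, a phosphatase gene, went the other way, from 33.9 to 19.4 FPKM on 400 Pa and from 42.0 to 23.7 on 60 kPa, and CDKN1A was also lower on both gels. RBL1, which encodes the pocket protein p107, went from 42.6 to 26.0 FPKM on 400 Pa and from 24.4 to 30.4 on 60 kPa. Its change between gels at day 0 was 0.78 with an SE of 2.02, so this opposite course rests on uncertain values. CCNG2, a cyclin linked to withdrawal from the cycle, was at 3.81 and 4.53 FPKM at day 0, then at 31.9 and 26.5 at day 3.5, the highest change of all 8 lists on both gels. Lower at day 3.5 were UBE2S, an enzyme of the anaphase-promoting complex, from 29.3 to 14.6 FPKM on 400 Pa and from 31.2 to 16.0 on 60 kPa, and TFDP1, the partner of E2F factors, from 32.4 to 18.2 and from 29.6 to 15.7. TFDP2 went from 179 to 102 FPKM on 400 Pa and from 161 to 143 on 60 kPa. Other genes rose. FBXW7, highest in the list that holds UBE2S, went from 26.2 to 41.6 FPKM on 400 Pa and from 18.7 to 32.8 on 60 kPa. NCAPD2, with the highest change among condensin and cohesin genes, went from 2496 to 5115 FPKM and from 2327 to 4406. Its level stood far above the rest of that list, where PTTG1 came next at 303 and 359 FPKM at day 0. Small RNA genes were looked up for the members only, and what makes up this NCAPD2 value was not tested. RFC2 and the genes of these sentences were named after their values were seen; most are the highest or lowest of their list on at least 1 gel.

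**Figure D4:**
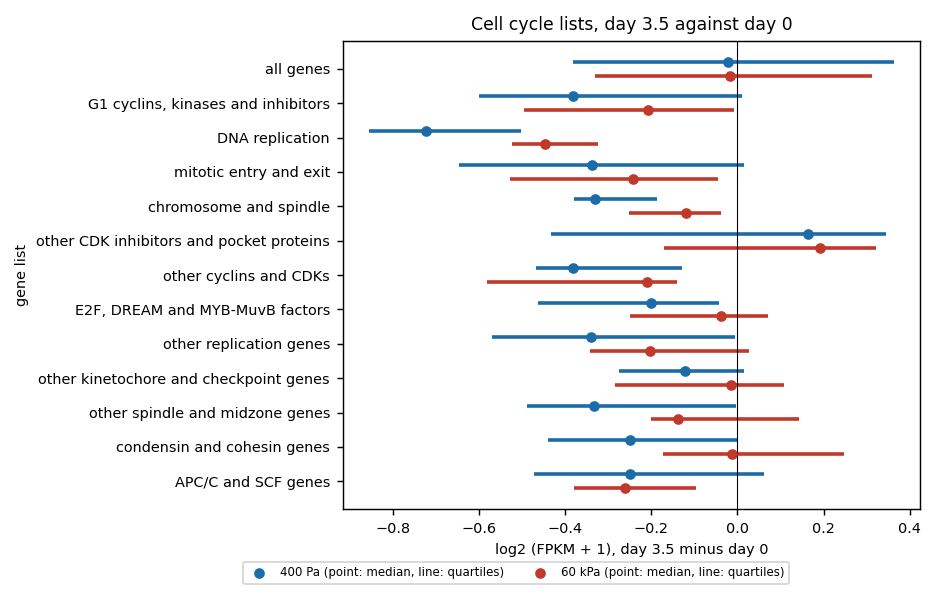
Median (points) and quartiles (lines) of the change in log2(FPKM + 1) from day 0 to day 3.5 for all genes, the 4 phase groups of the members and the 8 other lists, on 400 Pa (blue) and 60 kPa (red). Replication genes have the lowest medians, -0.72 and -0.45, while inhibitors and pocket proteins (7 tested genes) lie at 0.16 and 0.19.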

How the data were processed

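RNA-seq of 8 libraries in 4 groups was analysed from 2 tables. Per the submitters' processing notes the authors used Cufflinks and genome build hg19, which gave 1 FPKM per gene locus and group; the aligner, annotation, strand setting and versions were not given in the sources used here. Each deposited table adds the authors' log2 ratio of stiff over soft, their test statistic (a score), p-value and q-value. The q-values are a Benjamini-Hochberg adjustment over the loci tested. As no value per library was given, no test between gels was run here: calls are the authors' q below 0.05 with at least 1 FPKM in a group. Each symbol was taken once, as its row with the highest mean. Members and lists were chosen with earlier results of these data known. All members are named. Of each other list the rule was to name the called genes or the largest change each way at 5 FPKM or more. Only some of the genes under that rule are printed. Genes of the other lists named across the days were chosen after their values were seen. Starts in the tables were read as counted from 0 and are printed 1-based. The test between days was checked on simulated data. GENCODE release 29 gave small RNA genes, RefSeq the promoters. Computations used numpy 2.4.6, pandas 2.3.3 and scipy 1.17.1 in Python 3.11.15, and figures matplotlib 3.10.9.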

Additional observations from a re-analysis of the deposited data

How the results depend on the processing

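The single call of each day became 0 at q below 0.01. At day 0 the smallest q of any tested gene was 0.0390, so on that day the 0 follows from the threshold alone. Leaving out the 8 members that hold a small RNA gene removes WEE1 and CDK6 themselves, so the 0 calls left on each day follow from that choice alone. The call of CDK6 at day 3.5 also became 0 when the authors' statistic was also held to a two-sided normal threshold of 0.05. The other alternatives, among them q below 0.1, unadjusted p below 0.05, other FPKM minimums, a 2-fold minimum and the merged rows counted, left 1 call on each day. The difference between days, with 0 members passing, had 1 at an unadjusted p below 0.05, and again 0 passing with errors taken from the authors' p. For WEE1 the latter is no independent check, since its p at day 0 was the lowest of any tested gene. Medians between gels ran from 0.00 to 0.04 at day 0 and from -0.12 to -0.07 at day 3.5, and medians between days from -0.38 to -0.36 on 400 Pa and from -0.27 to -0.24 on 60 kPa, over other pseudocounts (0.1 and 0.5), FPKM minimums, centring on the median gene, summing all rows of a symbol and leaving out WEE1. None changed sign. Counting the merged rows, leaving out members with small RNA genes, errors from p and the normal test were chosen after seeing the data. No paired analysis was possible because the tables hold 1 value per group, so no library could be left out either. Depth is unknown, and the limit of detection of small changes rests on the authors' errors alone.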

Other observations

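Small RNA rows inside the loci of 3 members, CCNB1, TOP2A and PCNA, were listed at 0 on one gel and high on the other. A further one, MIR3150A in the locus of CCNE2, stayed between 0.0451 and 0.163 FPKM in all 4 groups. In the locus of CCNB1 a row named snoU13 was listed at 0 on 400 Pa and at 911 FPKM on 60 kPa at day 0, and at 977 FPKM on 400 Pa and at 0 on 60 kPa at day 3.5. CCNB1 itself was at 258 and 267 FPKM and at 171 and 153. In the locus of TOP2A a Y_RNA row was at 263 FPKM on 400 Pa and listed at 0 on 60 kPa at day 0, and at 559 FPKM and 0 at day 3.5, while TOP2A was at 129 and 127 and at 141 and 152. In that of PCNA a SNORA26 row was at 93.9 FPKM on 400 Pa and listed at 0 on 60 kPa at day 0. None of these rows was called in the authors' deposited tables. WEE1 and CDK6, the members called, each contain a small RNA gene in GENCODE release 29 that has no row of its own in their loci; 8 of the 41 members contain one.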
